A study of Mus musculus with 6 samples.

Results

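Transcripts of 10 genes of early B cell precursors were read on arrays of bone marrow cells sorted for CD71, the transferrin receptor. The genes are Vpreb1, Vpreb3, Igll1, Rag1, Rag2, Dntt, Il7r, Ebf1, Pax5 and Pou2af1. They were chosen by symbol, taking every probe set annotated to 1 of these symbols alone, which gave 16 of the 22626 probe sets tested and 10 of the 12393 genes measured. A probe set shared by Vpreb1 and another gene was left out by that rule.

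The samples were 3 from mice with a transgene for mutant RPS19 (a small-subunit ribosomal protein, here with the change R62W) and 3 from wild type mice, all of strain FVB/N, with 1 array per sample. The series addresses Diamond-Blackfan anaemia, a failure of red cell production, and its arrays compare the sorted cells of mutant and wild type marrow. The promoter that drives the transgene, the age and sex of the mice, the purity of the sort and any pooling of animals remain unstated in the sources used here. Whether samples of 1 group are separate animals is also unstated, so each p-value reflects the variation of these 6 samples alone and that may be technical. The sample descriptions end in 1 shared tag for all wild type samples and in a different tag for each mutant sample. The meaning of these tags is unstated, so it is open whether the wild type samples are separate animals or portions of 1, which bears on the small spread between them and on every p-value.

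B cells arise in the bone marrow from lymphoid progenitors. Interleukin-7, read through the receptor encoded by Il7r, drives the growth of the earliest precursors, and the transcription factors Ebf1 and Pax5 set and hold the B cell fate. The recombinase of Rag1 and Rag2 cuts the immunoglobulin gene segments, Dntt adds bases at the joints, and a successful heavy chain is displayed with the surrogate light chain of Vpreb1 and Igll1 as the pre-B cell receptor. CD71 is abundant on erythroblasts and is also carried by other dividing cells.

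Values are log2 signals after the authors' RMA normalisation, so a difference of 1 is a doubling. Klf1, an activator of globin genes, was bright, at 11.25 ± 0.48 in mutant and 11.64 ± 0.10 in wild type samples (SD, n = 3 each). So was Tfrc, which encodes CD71, at 11.80 ± 0.31 in mutant and 12.14 ± 0.01 in wild type samples. Both belong to a list of 12 measured red cell genes, whose mean level was 9.54 to 9.56 on wild type arrays. A list of 12 neutrophil genes read 9.96 to 10.07 there. The red cell mean is lowered by the globin gene Hba-a1, whose probe set read only 3.06 to 3.27 on wild type arrays. These list levels therefore neither rank the 2 cell types nor give the purity of the sort. The mutant arrays stood apart from one another. The SD over probe sets of the difference between arrays was 0.34 to 0.50 within the mutant group and 0.14 to 0.19 within the wild type group. RNA controls differed too. Polyadenylated spikes, added before labelling, read 11.58 to 13.47 on mutant and 8.74 to 8.77 on wild type arrays, and the Actb control read 1.58 to 1.88 higher at its 3' than at its 5' end on mutant arrays and 1.26 to 1.37 higher on wild type arrays. Xist, transcribed from the inactive X chromosome, read 5.78 on mutant replicate 3 and 11.38 to 12.07 on the other arrays. Mutant replicate 3 may therefore differ from all other samples in the sex of the mice as well, which the labels do not state. The part of these array differences in the results below was not tested.

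The early B precursor genes were high on mutant replicate 2, intermediate on mutant replicate 3, and at or below wild type levels on mutant replicate 1 for most probe sets. Over the 16 probe sets the median shift from the wild type mean was -0.15 on mutant replicate 1, 1.62 on mutant replicate 2 and 0.53 on mutant replicate 3, while the medians over all probe sets were -0.04, -0.02 and 0.01. On mutant replicate 2, 11 of the 16 lay at least 1 above the wild type mean, as did 1.31% of all probe sets. On mutant replicate 3 it was 4 of 16, against 0.601% of all, and on mutant replicate 1 it was 0 of 16, against 1.68%.

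None of the 16 probe sets passed the test between the groups. By limma over all probe sets, 0 of the 16 were called at a Benjamini-Hochberg adjusted p under 0.05, where 2.33% of all probe sets were called, and 3 of the 16 had an unadjusted p under 0.05, where 19.1% of all did. The 16 differences had a median of 0.75 (all probe sets -0.01) and 14 of them were positive. In bulk samples such as these, fewer or more cells of a type and less or more RNA per cell cannot be told apart.

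**Figure D1:**
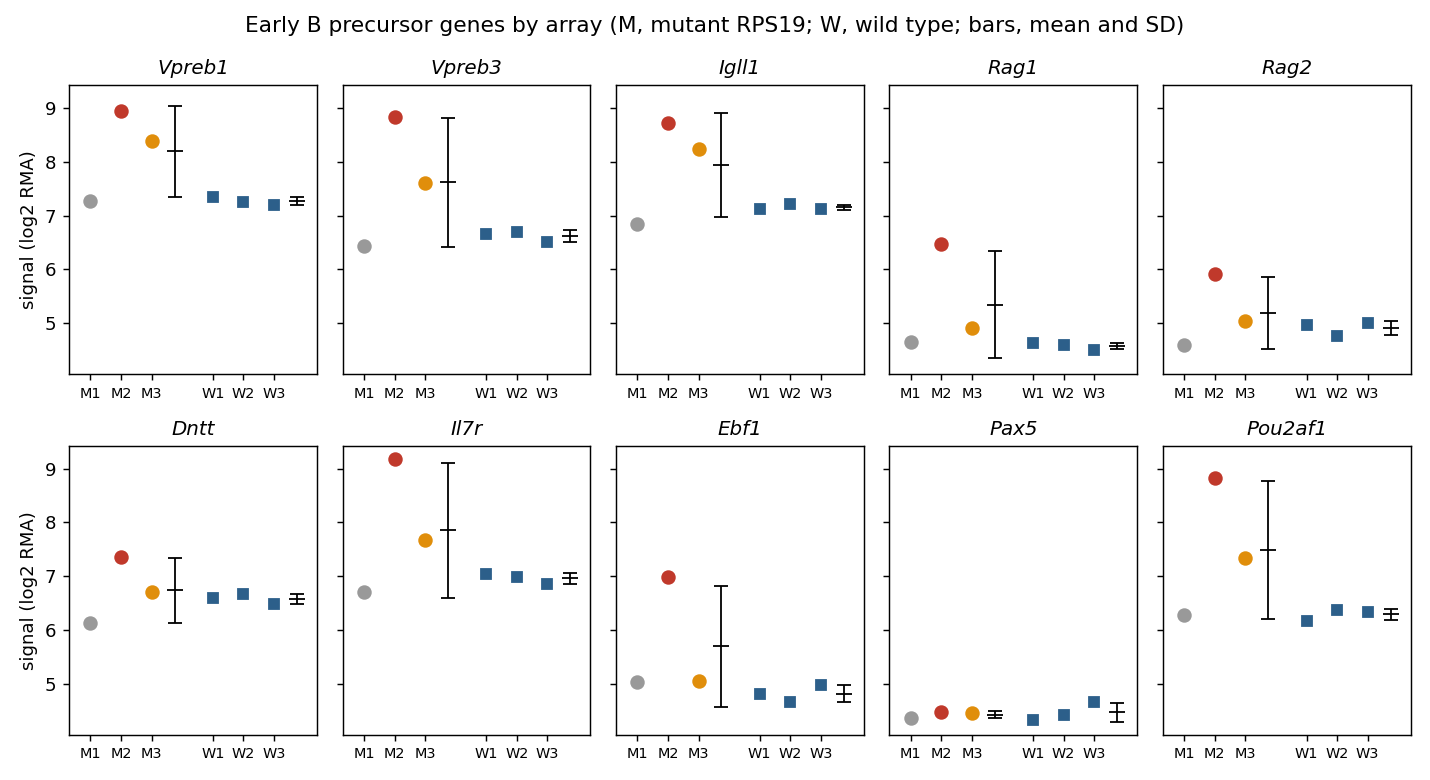
Log2 RMA signal (vertical axis) of the brightest probe set of each of the 10 genes on mutant RPS19 arrays M1 to M3 (circles) and wild type arrays W1 to W3 (squares), with the mean and SD of each group as bars beside them. M2 is the highest array for 9 genes, and Pax5 stays between 4.32 and 4.66 on all 6 arrays.

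Vpreb1 and Igll1 encode the variable-like and the constant-like part of the surrogate light chain. They are neighbours on chromosome 16, with 0 annotated genes between them in the GRCm38.p6 gene table, and Vpreb3, which encodes a related protein of pre-B cells, lies on chromosome 10. All 10 genes were found among the RefSeq promoter windows of build GRCm38.p6. The 250 bases before the start of these 3 genes are shown because the factors encoded by Ebf1 and Pou2af1, themselves among the 10, act on such promoters. Capitals mark CCCNNGGG (bound by EBF factors), CAGGTG and CAGCTG (E-boxes, read by E proteins) and ATGCAAAT (the octamer, where the product of Pou2af1 joins octamer-binding factors), searched on both strands.
Igll1, chr16:16863986-16864235, minus strand: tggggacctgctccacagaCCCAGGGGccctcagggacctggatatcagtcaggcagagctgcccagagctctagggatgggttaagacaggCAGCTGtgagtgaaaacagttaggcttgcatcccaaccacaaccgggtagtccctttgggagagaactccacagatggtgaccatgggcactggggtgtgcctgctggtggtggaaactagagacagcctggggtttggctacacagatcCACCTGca
Vpreb1, chr16:16869256-16869505, minus strand: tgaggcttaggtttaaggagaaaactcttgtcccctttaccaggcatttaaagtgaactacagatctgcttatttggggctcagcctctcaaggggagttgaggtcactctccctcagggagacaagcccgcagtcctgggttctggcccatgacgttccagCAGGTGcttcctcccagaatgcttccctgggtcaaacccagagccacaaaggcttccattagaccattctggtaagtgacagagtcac
Vpreb3, chr10:75948050-75948299, plus strand: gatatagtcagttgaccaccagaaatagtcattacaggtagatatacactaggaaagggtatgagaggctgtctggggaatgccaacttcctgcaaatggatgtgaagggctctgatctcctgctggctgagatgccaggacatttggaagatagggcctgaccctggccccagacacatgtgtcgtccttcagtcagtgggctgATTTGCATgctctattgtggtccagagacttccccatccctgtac

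The Igll1 window held 1 match each to CCCNNGGG, CAGGTG and CAGCTG, and the CAGGTG match lies on the other strand, 8 to 3 bases before the start. The Vpreb1 window held CAGGTG 88 to 83 bases before the start. The Vpreb3 window held the octamer on the other strand, 45 to 38 bases before the start. Of 32851 windows of the same length, 11.8% held CCCNNGGG, 17.2% CAGGTG, 13.0% CAGCTG and 1.6% the octamer. Among the other genes of the set, the Rag1 window held both E-boxes and none of the remaining windows held any of these letters. No match overlapped another.

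Vpreb1 read 7.27, 8.94 and 8.38 on mutant replicates 1 to 3, against 7.34, 7.26 and 7.20 on wild type replicates 1 to 3. Mutant replicates 2 and 3 were above every wild type array and mutant replicate 1 lay within the wild type range. The difference of the groups was 0.93 ± 0.37 (log2, SE, adjusted p = 0.23, limma).

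Igll1 behaved alike at its brighter probe set, 1420176_x_at, with 6.85, 8.72 and 8.24 on the mutant arrays, against 7.12, 7.21 and 7.13 on the wild type arrays. Here mutant replicate 1 was the lowest of the 6 arrays. The difference was 0.79 ± 0.42 (adjusted p = 0.37, limma). The suffix x marks a probe set with probes that may also read other transcripts. The dimmer probe set 1420177_at read 3.47, 4.09 and 4.43 on the mutant arrays, against 3.66, 3.57 and 3.43 on the wild type arrays. In it mutant replicate 3, not 2, was the highest (difference 0.44 ± 0.23, adjusted p = 0.35, limma).

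Vpreb3 read 6.43, 8.83 and 7.60 on the mutant arrays, against 6.66, 6.70 and 6.5 on the wild type arrays. Mutant replicate 2 stood 4.63-fold and mutant replicate 3 1.98-fold above the wild type mean, and mutant replicate 1 was below all wild type arrays. The difference was 1.0 ± 0.52 (adjusted p = 0.35, limma).

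Rag1 and Rag2, which encode both chains of the recombinase and sit next to each other on chromosome 2, were high on mutant replicate 2 and close to wild type on mutant replicate 3. Rag1 read 4.64, 6.48 and 4.91 on the mutant arrays, against 4.62, 4.60 and 4.51 on the wild type arrays. The groups did not overlap, although mutant replicate 1 exceeded the highest wild type array by a small step only. Rag2 read 4.59, 5.91 and 5.04 on the mutant arrays, against 4.97, 4.76 and 4.99 on the wild type arrays, with mutant replicate 1 below all wild type arrays. Rag1 differed by 0.77 ± 0.43 and Rag2 by 0.27 ± 0.30 (adjusted p = 0.39 and 0.68, limma).

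Dntt encodes terminal deoxynucleotidyl transferase, which is most active in pro-B cells, the stage at which the heavy chain gene is joined. Its brightest probe set, 1449757_x_at, read 6.14, 7.36 and 6.71 on the mutant arrays, against 6.60, 6.66 and 6.48 on the wild type arrays. A second, 1450545_a_at, read 4.74, 6.31 and 5.55 on the mutant arrays, against 5.52, 5.57 and 5.59 on the wild type arrays. Both were highest on mutant replicate 2 and lowest on mutant replicate 1, where the shift at 1450545_a_at was -0.82. That was the deepest among the 16 probe sets on any mutant array. The dim probe set 1420166_at read 3.02, 3.74 and 3.91 on the mutant arrays, against 3.27, 3.23 and 3.38 on the wild type arrays. The 3 differences were 0.15 ± 0.27, -0.03 ± 0.34 and 0.26 ± 0.22 (adjusted p = 0.82, 0.98 and 0.58, limma).

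Il7r encodes the alpha chain of the interleukin-7 receptor. Its brighter probe set, 1448575_at, read 6.70, 9.18 and 7.67 on the mutant arrays, against 7.05, 6.99 and 6.85 on the wild type arrays. Mutant replicate 2 was 4.66-fold above the wild type mean, a shift larger than that of 99.9% of all probe sets on that array. The dimmer probe set 1448576_at read 4.08, 6.48 and 4.67 on the mutant arrays, against 4.45, 3.99 and 4.58 on the wild type arrays, and gave the same order of the mutant arrays. The differences were 0.89 ± 0.54 and 0.74 ± 0.55 (adjusted p = 0.43 and 0.53, limma).

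Ebf1 encodes the factor that opens the B cell programme and is known to act on Igll1, Vpreb1 and Cd79a. All of its 3 probe sets had mutant values that did not overlap with wild type, and with Rag1 they made up the 4 of 16 probe sets with this pattern (11.4% of all probe sets had it in the same direction). At 1416301_a_at Ebf1 read 5.00, 7.01 and 6.15 on the mutant arrays, against 4.23, 3.86 and 4.15 on the wild type arrays. The difference of 1.98 ± 0.44 was the largest of the set and came closest to the threshold (adjusted p = 0.070, limma). Mutant replicate 1 lay 0.93 above the wild type mean here, its highest shift among the 16.

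The other probe sets of Ebf1 gave smaller differences, and 1 of them, 1448293_at, was the brightest of the gene. At 1448293_at it read 5.04, 7.0 and 5.05 on the mutant arrays, against 4.81, 4.66 and 4.98 on the wild type arrays. At 1416302_at it read 4.66, 5.81 and 4.87 on the mutant arrays, against 4.23, 4.58 and 4.47 on the wild type arrays. The probe sets thus disagreed on mutant replicate 3, which was 2.08 above the wild type mean at 1416301_a_at, 0.23 at 1448293_at and 0.44 at 1416302_at. The differences were 0.88 ± 0.49 and 0.68 ± 0.28 (adjusted p = 0.39 and 0.25, limma).

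Pax5, which commits cells to the B lineage, was flat at a dim probe set. All its values lay below the lowest array median of 5.34, so whether this probe set detects Pax5 here is open. Its single probe set read 4.36, 4.48 and 4.45 on the mutant arrays, against 4.32, 4.43 and 4.66 on the wild type arrays. It differed by -0.04 between the groups (limma, adjusted p = 0.90, with a 95% confidence interval of -0.30 to 0.23), and the sign was positive with array weights or without wild type replicate 3.

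Pou2af1 encodes a coactivator of octamer-binding factors that is found in B cells from early stages onward. It read 6.28, 8.83 and 7.34 on the mutant arrays, against 6.16, 6.37 and 6.33 on the wild type arrays. Mutant replicates 2 and 3 were 5.84-fold and 2.07-fold above the wild type mean, and mutant replicate 1 lay within the wild type range. The difference was 1.19 ± 0.55 (adjusted p = 0.30, limma).

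**Figure D2:**
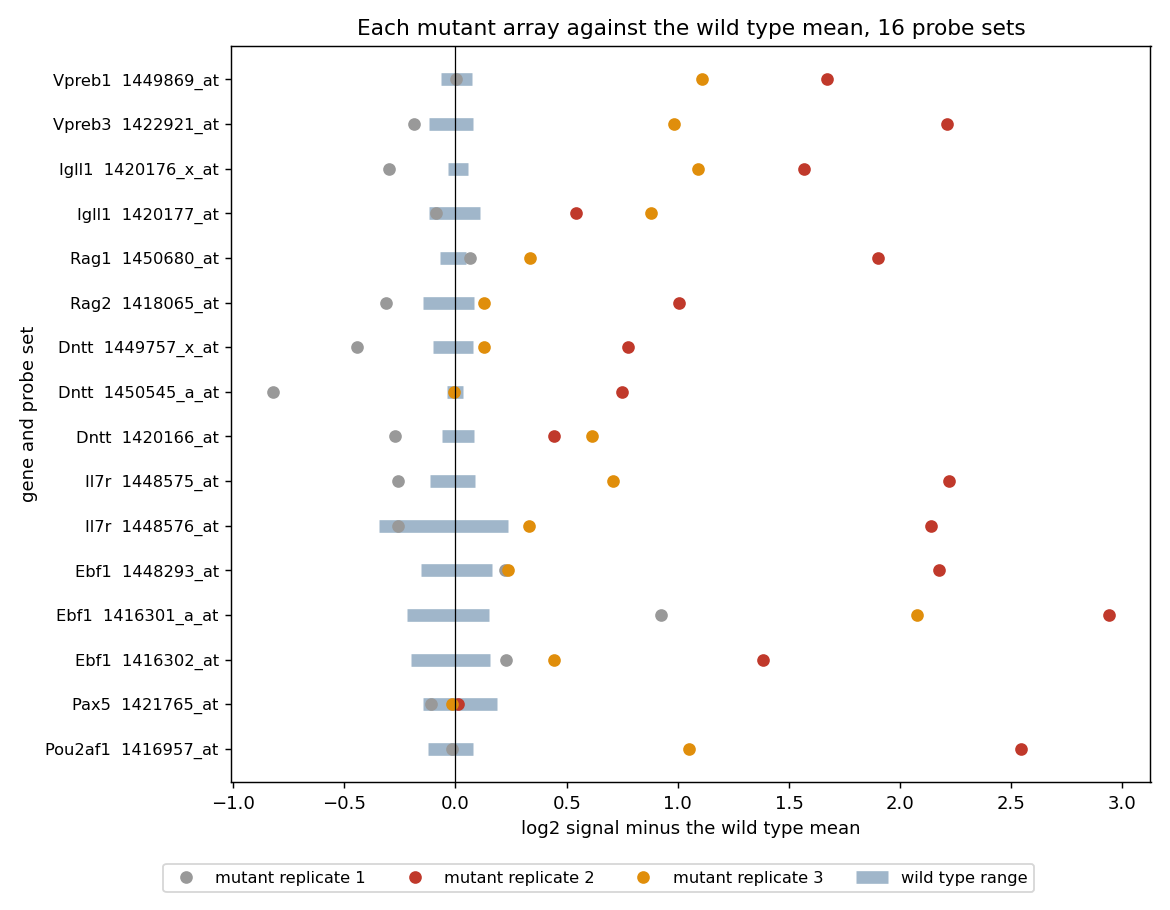
Shift of each mutant array from the wild type mean (horizontal axis, log2) for the 16 probe sets, with the range of the 3 wild type arrays as a bar. Mutant replicate 2 lies above the wild type range in 15 of 16 probe sets, mutant replicate 3 in 14 and mutant replicate 1 in 4.

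The arrays were thus ordered in the same way by most of the set. Mutant replicate 2 was the highest of the 6 arrays for 13 of the 16 probe sets (17.2% of all probe sets), mutant replicate 3 for 2 and a wild type array for 1. Mutant replicate 2 exceeded every wild type array in 15 of 16 probe sets (33.8% of all), mutant replicate 3 in 14 (37.1% of all) and mutant replicate 1 in 4 (33.1% of all). Mutant replicate 1 was below every wild type array in 7 of 16, where 42.4% of all probe sets were. The SD of the mutant arrays exceeded that of the wild type arrays for 15 of the 16 probe sets, as it did for 76.7% of all.

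The genes did not keep 1 ratio between mutant replicates 2 and 3. At the brightest probe sets the shifts of Igll1 were 1.57 on mutant replicate 2 and 1.09 on mutant replicate 3, and those of Vpreb1 were 1.67 and 1.11. Vpreb3 (2.21 and 0.98), Pou2af1 (2.54 and 1.05) and Il7r (2.22 and 0.71) were further behind on mutant replicate 3. Rag1 (1.9 and 0.34), Rag2 (1.0 and 0.13), Dntt (0.78 and 0.13) and Ebf1 (2.18 and 0.23) were nearer to wild type there, and Pax5 (0.01 and -0.01) was at the wild type level on both. With 1 array each, these differences between genes have no test. Rag1, Rag2 and Ebf1 were also dim, with wild type means of 4.58, 4.91 and 4.82, below the lowest array median of 5.34. Dntt, at 6.58, was not. The part of low signal in these ratios was not tested. Other probe sets of a gene gave other ratios, with 2.94 and 2.08 at 1416301_a_at of Ebf1, 2.14 and 0.33 at 1448576_at of Il7r, and a larger shift on mutant replicate 3 than on mutant replicate 2 at the dim probe sets 1420177_at of Igll1 and 1420166_at of Dntt.

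Each array was also left out in turn. Mutant replicate 1 had the lowest median shift of the 16, so leaving it out raises their median difference by construction. The calls made without it are therefore no separate support for a rise. Without any 1 wild type array 0 of the 16 were called. The fit without mutant replicate 1 compares 2 mutant with 3 wild type arrays, and it called 2544 of all probe sets. Of these, 1352 were higher in the mutant (5.98% of all). In this fit 8 of the 16 probe sets were called, all higher. They were Ebf1 at 1416301_a_at (2.51 ± 0.24, adjusted p = 0.0030), Igll1 at both probe sets (1.33 ± 0.14 and 0.71 ± 0.13), Vpreb1 (1.39 ± 0.16), Vpreb3 (1.60 ± 0.31), Pou2af1 (1.80 ± 0.37), Il7r at 1448575_at (1.47 ± 0.38) and Dntt at 1420166_at (0.53 ± 0.10). The adjusted p of the last 7 ran up to 0.049 by limma. The other probe sets of Ebf1, Il7r and Dntt were not called. Their limma adjusted p was 0.16 at 1448293_at and 0.064 at 1416302_at of Ebf1, and 0.14 at 1448576_at of Il7r. For Dntt it was 0.16 at 1449757_x_at and 0.28 at 1450545_a_at, both brighter than the called 1420166_at. Rag1 differed by 1.12 ± 0.39 (adjusted p = 0.11) and Rag2 by 0.57 ± 0.23 (adjusted p = 0.17). With array weights, which let limma weigh the arrays by their fit, 11 of the 16 were called, all higher. Of all probe sets 5.68% were called higher in that fit. The weights raised the median of the 16 from 0.75 to 1.23. At 1448293_at of Ebf1, with mutant shifts of 0.22, 2.18 and 0.23, they raised the difference from 0.88 to 1.53. The weighted estimate there leaned on mutant replicate 2, so these calls are no separate support for a rise either. Without mutant replicate 2 the median of the 16 was 0.23 and 0 were called, and without mutant replicate 3 it was 0.82 and 0 were called (1 and 2 at an unadjusted p under 0.05, limma). Dntt and Rag2 took a negative sign without mutant replicate 2, at -0.16 and -0.09.

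**Figure D3:**
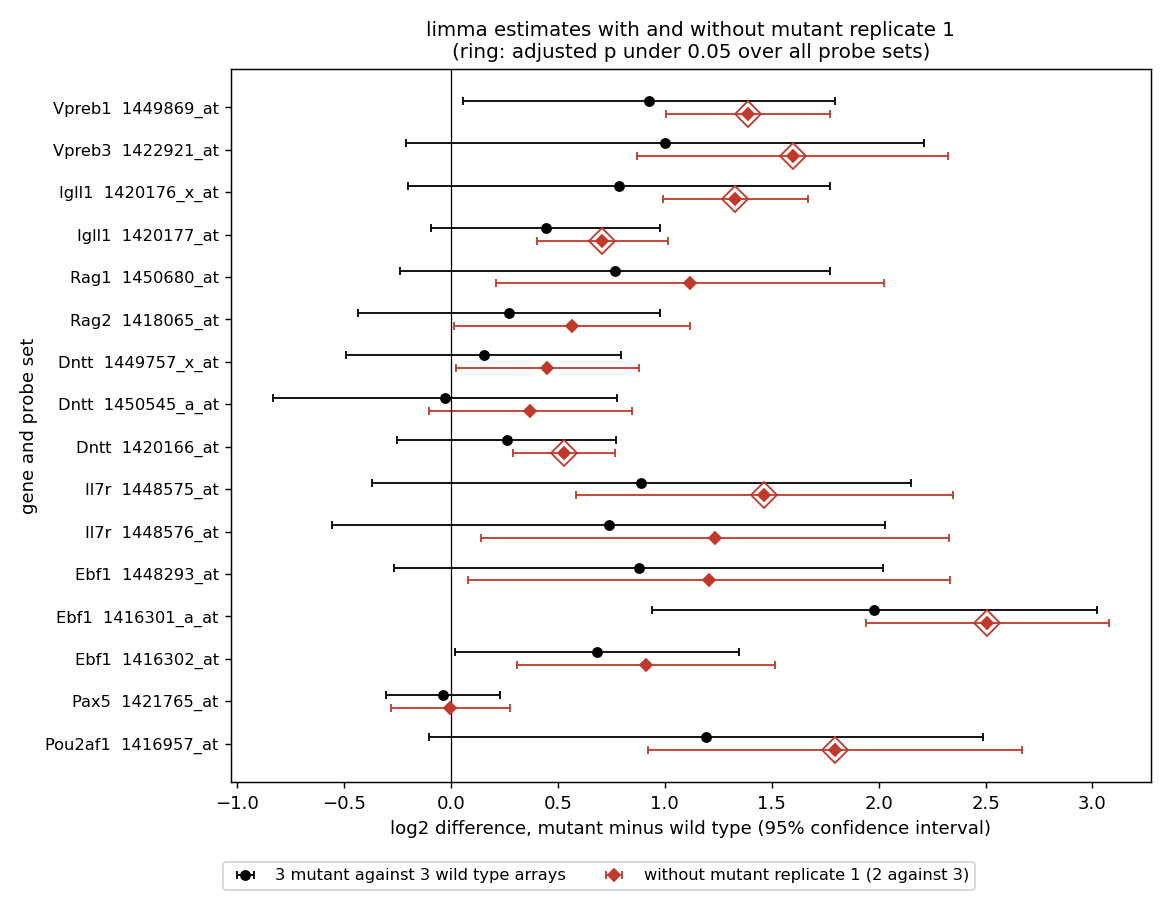
Difference between mutant and wild type (log2, horizontal axis) with its 95% confidence interval from limma for the 16 probe sets, from all 6 arrays (circles) and without mutant replicate 1 (diamonds). Rings mark an adjusted p under 0.05, which 8 probe sets reached without mutant replicate 1 and 0 with all arrays. Mutant replicate 1 was the array with the lowest median shift of the 16.

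Other genes of the B lineage were read from lists at the brightest probe set of each gene, where 1.52% of the 12393 genes were called. Of 23 further B lineage factors and pre-B cell receptor signalling genes 19 were measured and 0 were called (6 at an unadjusted p under 0.05, limma). Their median was 0.06, 0.33 and 0.05 on mutant replicates 1 to 3. Blnk, the adaptor below the pre-B cell receptor, was 0.54, 2.54 and 1.34 above its wild type mean on these arrays, and Irf4, a transcription factor of pre-B and plasma cells, was 0.72, 2.02 and 0.90 above. Foxo1, an activator of the Rag genes, was 0.34, 0.78 and 0.24 above. Ikzf1, which encodes Ikaros, was -0.52, -0.36 and -0.38 from its wild type mean.

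Of 17 listed genes of mature B cells 14 were measured and 0 were called (4 at an unadjusted p under 0.05, limma), with medians of 0.03, 0.48 and 0.07 on mutant replicates 1 to 3. On mutant replicate 2 their shifts ran from -0.28 to 3.15. Not all rose, with 10 of the 14 higher on average in the mutant group (6082 of all 12393 genes). On mutant replicate 3, 7 of the 14 were above and 6 below every wild type array (4826 and 4122 of all 12393). The genes named next are those of lowest p and do not stand for the whole list. Ms4a1, the B cell surface protein CD20, was 0.08, 3.15 and 1.75 above wild type, Cd72, a B cell coreceptor, 0.63, 3.15 and 1.58, and Fcrla, of the B cell Fc receptor-like family, 0.86, 2.96 and 1.81. Cd83 was 0.31, 0.39 and 0.09 above. Of the 7 genes of MHC class II antigen presentation 6 were measured, with medians of -0.07, 0.60 and 0.21 and 0 called (0 at an unadjusted p under 0.05, limma). H2-Ab1 was 0.06, 0.70 and 0.27 and H2-Aa -0.07, 0.76 and 0.26 from wild type, H2-DMb2 0.06, 0.50 and 0.16, and H2-DMa -0.06, -0.18 and -0.74.

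Of the 11 listed plasma cell genes 10 were measured and 1 was called, Jchain, the joining chain of secreted antibody, which fell by 2.88 ± 0.49 (adjusted p = 0.035, limma). It was low on every mutant array, at -2.64, -1.89 and -4.13 from the wild type mean. Its call was lost when any 1 wild type array was left out (limma adjusted p = 0.179, 0.177 and 0.176 without replicates 1, 2 and 3). Sdc1, a plasma cell surface protein that pre-B cells also carry, was 0.24, 1.33 and 0.17 above, Derl3 0.17, 0.32 and 0.18 above, and Prdm1, the plasma cell regulator, was -0.31, -0.14 and -0.36 from wild type. The medians of the list were 0.29, 0.11 and -0.42.

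Genes that act together with the 10, or mark the stage before them, were read in the same way. Of 15 genes of the interleukin-7 receptor pathway 14 were measured, and 0 were called (0 at an unadjusted p under 0.05, limma), with medians of 0.24, -0.06 and -0.18. Cish differed by -0.16 ± 0.09, Bcl2 by 0.16 ± 0.12, Stat5a by -0.06 ± 0.11 and Stat5b by 0.05 ± 0.09. Of 13 factors that help to cut or join the gene segments 10 were measured and 0 were called (3 at an unadjusted p under 0.05, limma), with medians of -0.12, 0.12 and 0.12. Polm, a polymerase related to Dntt, was 0.09, 1.05 and 0.42 above wild type. Trp53bp1 differed by 0.45 ± 0.12, Prkdc by 0.42 ± 0.15 and Atm by -0.31 ± 0.10. Of 10 genes of common lymphoid progenitors 9 were measured and 0 were called (0 at an unadjusted p under 0.05, limma), with medians of 0.63, 0.33 and -0.53. Kit was 0.02, -0.55 and -0.20, Notch1 0.49, 0.85 and -0.41, Cd93 0.66, 0.45 and -0.36 and Satb1 0.87, 0.58 and -0.53 from wild type.

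Rag1, Rag2, Dntt and Il7r are also used by T cell precursors, and markers of other marrow cells were therefore read on the same arrays. The 15 measured T cell genes of 17 listed had medians of -0.03, -0.01 and -0.03 on mutant replicates 1 to 3, and a mean level of 4.09 to 4.17 on mutant and 4.08 to 4.21 on wild type arrays. Cd3d was -0.29, -0.28 and -0.52 from wild type, Ptcra, of the pre-T cell receptor, -0.33, -0.24 and -0.45, Cd3g -0.13, -0.34 and -0.36 and Lat 0.34, 0.51 and 0.12. The 8 measured natural killer cell genes of 9 had medians of 0.14, 0.18 and 0.01, and ran from -0.42 to 1.57 on mutant replicate 2. Those of lowest p were Tbx21 (0.08, 0.38 and 0.27), Gzma (0.20, 1.57 and 0.17), Prf1 (0.07, 0.12 and 0.32) and Gzmb (0.69, -0.01 and 0.05). The 7 measured genes of plasmacytoid dendritic cells, of 9 listed, had medians of -0.20, 0.50 and -0.20. Their mean level was 5.68 to 6.38 on mutant and 5.90 to 5.97 on wild type arrays. Of the 7, 2 were higher on average in the mutant group (6082 of all 12393 genes). Those of lowest p were Tcf4 (0.37, 0.81 and 0.14), Cox6a2 (-0.78, 0.50 and -0.67), Irf7 (-0.20, 0.13 and 0.36) and Tlr9 (-0.10, 0.07 and -0.18). In these 3 lists 0 genes were called (6, 0 and 1 at an unadjusted p under 0.05, limma).

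Myeloid and red cell markers also differed between the same arrays. The 12 neutrophil genes had medians of 0.69, -0.47 and -0.93 on mutant replicates 1 to 3. All 12 were above every wild type array on mutant replicate 1 (4308 of all 12393 genes). On mutant replicate 3 all 12 were below every wild type array (4122 of all 12393 genes). Their mean level was 9.03 to 10.76 on mutant and 9.96 to 10.07 on wild type arrays. The 12 monocyte and macrophage genes had medians of -0.12, -0.15 and -0.76, and a mean level of 6.05 to 6.86 on mutant and 6.85 to 6.97 on wild type arrays. In the red cell list 12 of 15 genes were measured, with medians of -0.58, 0.12 and 0.17 and a mean level of 9.08 to 9.78 on mutant and 9.54 to 9.56 on wild type arrays. Its 1 called gene was Hbb-b2, a beta globin, which rose by 0.75 ± 0.14 (adjusted p = 0.047, limma), while 0 genes of the 2 myeloid lists were called (0 and 2 at an unadjusted p under 0.05). The Hbb-b2 call was lost when any array but mutant replicate 1 was left out (limma adjusted p = 0.075 and 0.065 without mutant replicates 2 and 3, and 0.213, 0.234 and 0.122 without wild type replicates 1, 2 and 3). The 15 measured of 18 genes of other organs had medians of -0.04, 0.04 and 0.01. The part of these other cell types in the early B values was not tested.

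**Figure D4:**
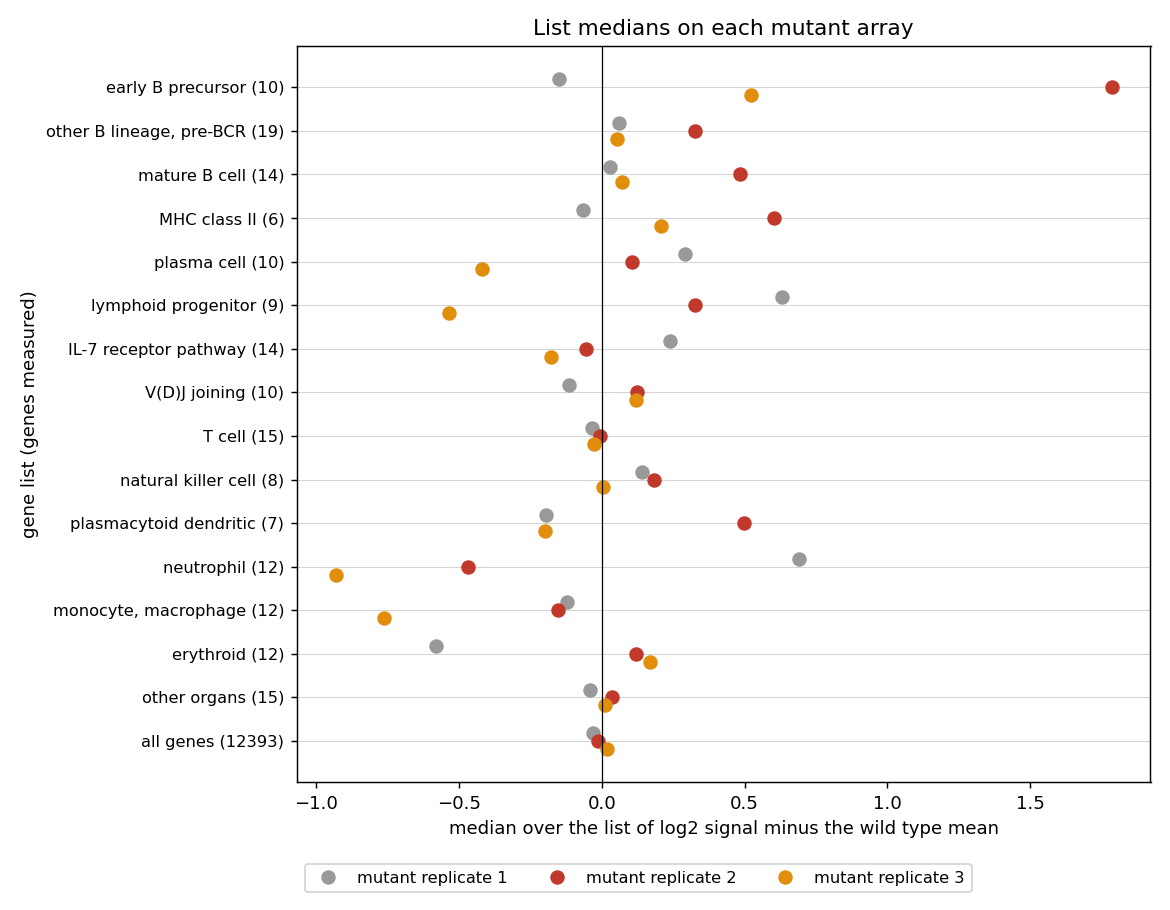
Median shift from the wild type mean (horizontal axis, log2) of each gene list on mutant replicates 1 to 3, with the number of genes measured in brackets; points of 1 list are set slightly apart vertically. The early B precursor genes reach 1.79 on mutant replicate 2 and 0.52 on mutant replicate 3 with 1 probe set per gene, while all genes stay between -0.03 and 0.02.

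The genes whose pattern over the 6 arrays was most like each of the 10 were found by the root-mean-square distance between shifts from the wild type mean, in log2 units, for the 9 genes that spanned at least 1. The nearest to Il7r were Cd79a, a signalling chain of the B cell receptor (distance 0.10), and Vpreb3 (0.12), followed by Enpep (0.18). Cd79a was -0.21, 2.06 and 0.71 from its wild type mean on mutant replicates 1 to 3. The nearest to Vpreb1 were Lgr5 (0.093), the B cell kinase gene Blk (0.13) and Igll1 (0.14), and the nearest to Igll1 were Tyms (0.14), Vpreb1 (0.14) and Adam33 (0.16). Vpreb3 was followed by Il7r (0.12), Cd79a (0.14) and Akap12 (0.15), and Pou2af1 by Enpep (0.12), Myl4 (0.14) and Akap12 (0.18). Rag1 lay nearest to Rsph9 (0.13), Fgf13 (0.14) and Spib (0.14), a factor of B cells and plasmacytoid dendritic cells. Rag2 lay nearest to Irs1 (0.062), Cd74 (0.10), the invariant chain of MHC class II, and Mettl23 (0.10). Dntt lay nearest to Pim2 (0.077), Tifa (0.090) and Cdc37l1 (0.097), and Ebf1 to Marcks (0.18), Rag1 (0.18) and Tnfrsf13c (0.21), a survival receptor of B cells. Among the 10 genes themselves the closest pairs were Vpreb3 with Il7r (0.12), Vpreb1 with Igll1 (0.14) and Rag2 with Dntt (0.16).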

How the data were processed

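Total RNA of 6 sorted samples was hybridised to 1 Affymetrix array each. The submitters' processing notes name GCOS, Affymetrix Expression Console and RMA, and the authors' deposited values are log2 signals. Not given in the sources used here were software versions and the set of arrays normalised at once. The 64 control probe sets were left out, leaving 22626, of which 20380 had 1 gene symbol, 691 several and 1555 none in the platform annotation of 2016.

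All 22626 probe sets were fitted with limma 3.58.1 in R 4.3.3 (lmFit, eBayes, two-sided, no covariates), and p-values were Benjamini-Hochberg adjusted over all of them. In the lists the brightest probe set stood for a gene. The members, lists and rules were chosen with earlier results of these data known. Named were all members, at most 4 genes of a list by lowest p, the 3 nearest patterns of a member that spanned at least 1, and Tfrc. The fit was tested on simulated data. The number of arrays limits the precision, and RMA gives no detection call.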

Additional observations from a re-analysis of the deposited data

How the results depend on the processing

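Over the alternatives the median difference of the 16 probe sets kept its positive sign, from 0.23 without mutant replicate 2 to 1.23 with array weights. The count of early B probe sets called, 0 of 16, became 1 at an adjusted p under 0.10, 11 with array weights and 0 to 8 when 1 array was left out. It stayed 0 with a trended and robust variance prior, repeated quantile normalisation, median centring, the filter on dim probe sets, 1 probe set per gene and an ordinary linear model (unadjusted p under 0.05 for 1 to 3 probe sets). The replicate block, which treats replicate numbers as a pairing, also called 0 of 16 and moved the count over all probe sets to 112, with 5 of 16 at an unadjusted p under 0.05. Same-numbered arrays deviated together only weakly (correlations 0.028 to 0.056), so the numbers were not taken as pairs. These correlations were still above those of differently numbered arrays (-0.078 to 0.023). That count, 528, was 41 with 1 probe set per gene, 81 with an ordinary linear model, 1386 at an adjusted p under 0.10, 2667 with array weights, and 36 to 2544 when 1 array was left out (2544 without mutant replicate 1, 203 without mutant replicate 2, 826 without mutant replicate 3, and 39, 36 and 48 without wild type replicates 1 to 3). The median shift on mutant replicate 1 was -0.26 with the dim filter and -0.13 with repeated quantile normalisation. That on mutant replicate 2 was 1.79 with 1 probe set per gene, 1.67 with the dim filter, 1.59 with median centring and 1.58 with repeated quantile normalisation. That on mutant replicate 3 was 0.98 with the dim filter, which left 7 probe sets, 0.56 with median centring and 0.55 with repeated quantile normalisation. Leaving out 1 wild type array gave -0.18 to -0.14, 1.60 to 1.63 and 0.49 to 0.56. Of single genes, Dntt (-0.16) and Rag2 (-0.092) changed sign without mutant replicate 2, and Pax5 with array weights (0.028) and without wild type replicate 3 (0.056). With 1 array left out, Dntt ran from -0.16 to 0.45, Rag2 from -0.092 to 0.57 and Pax5 from -0.11 to 0.056. With array weights 7 genes were called at their brightest probe set, and without mutant replicate 1 it was 5. The calls of Jchain and Hbb-b2, which are not early B genes, were also lost with the replicate block, 1 probe set per gene and an ordinary linear model, and that of Hbb-b2 with median centring and repeated quantile normalisation. The cause of these shifts was not tested.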
